A study of Mus musculus with 8 samples.

Results

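The WNT pathway genes of newborn mouse skin were described across Merkel cells and the SCA1+ epidermal cells sorted beside them. A gene belonged to the group if its symbol in the per-library count files was that of a WNT ligand (Wnt), a Frizzled receptor (Fzd), the co-receptors Lrp5 and Lrp6, a Dickkopf (Dkk), secreted Frizzled-related protein (Sfrp) or Wif1 inhibitor, an R-spondin (Rspo) or its receptors Lgr4 to Lgr6, the ubiquitin ligases Znrf3 and Rnf43, Axin1, Axin2, the beta-catenin gene Ctnnb1, or a TCF/LEF transcription factor. This rule found 56 of the 24538 genes in the files, made up of 19 ligands, 4 R-spondins, 10 Frizzled receptors, 2 co-receptors, 3 R-spondin receptors, 9 secreted inhibitors, 2 receptor ubiquitin ligases, 2 Axins, beta-catenin and 4 TCF/LEF factors. Of these, 44 passed the filter on low counts and were tested, and 12 were not tested.

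All 8 libraries came from epidermis of Atoh1-GFP mice at postnatal day 0, with 2 libraries in each of 4 groups. All sorted cells carried EPCAM. Paw Merkel and back Merkel cells were taken from the fraction with GFP and without SCA1, and paw IFE and back IFE cells from the fraction with SCA1 and without GFP. The labels do not spell out IFE, how the GFP reporter was made, how many pups were pooled, or whether a group's libraries are different animals, and each p-value therefore measures only the spread between these samples, which may be technical. Merkel cells are the touch-sensing epithelial cells of the epidermis and depend on the transcription factor ATOH1, and the 2 sites set glabrous (paw) beside hairy (back) skin.

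WNT ligands are secreted lipid-modified proteins that bind a Frizzled receptor together with LRP5 or LRP6. Binding stops the Axin-based complex that destroys beta-catenin, which then enters the nucleus and switches TCF/LEF proteins from repression to activation. R-spondins raise the response by acting through LGR receptors on ZNRF3 and RNF43, which otherwise remove Frizzled from the cell surface, while SFRP, DKK and WIF1 proteins restrain it outside the cell. In skin the pathway is known for inducing hair placodes and for the upkeep of the basal epidermis.

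The libraries held 11139306 to 26195076 counts assigned to genes, and the levels below are CPM, the share of a library's counts scaled by edgeR's TMM method. The sort was visible in the transcripts. Atoh1 lay at 178 to 304 CPM in the Merkel libraries, against 0.0815 to 0.458 CPM in the IFE libraries, and Ly6a, which encodes SCA1, at 0 to 1.95 CPM in the Merkel libraries, against 20.5 to 59.7 CPM in the IFE libraries. All 8 listed Merkel markers were higher in Merkel cells at both sites, with a summed level of 2880.1 to 4041 CPM in Merkel libraries and 8.96 to 18.2 CPM in IFE libraries. All 7 basal keratinocyte markers were lower in Merkel cells, with 1073 to 3451 CPM in Merkel libraries and 24059.5 to 40931 CPM in IFE libraries. The paw Merkel libraries stood furthest apart, with a median absolute log2 difference of 0.79 over genes, against 0.41 to 0.58 in the other groups. Of these, library 1 held more keratinocyte transcript than library 2, at 3451 and 1860.1 CPM for the basal list and 5145 and 387 CPM for the suprabasal list. The back IFE libraries differed from each other in some genes, which were picked after their values were seen. Hoxc10 was at 83.9 CPM in library 2, against 0 CPM in library 1, where the 4 paw libraries held 62.3 to 82.3 CPM. Col3a1 was at 195 CPM in library 2, against 8.09 CPM in library 1, where paw Merkel cells held 13.4 and 6.36 CPM and paw IFE cells 152 and 185 CPM. The part of these differences in the results below was not tested, and WNT genes whose call was lost when a library was left out are given with that value.

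Merkel cells of both sites held less Wnt3 and Lef1 and more Fzd3 transcript than the IFE cells beside them. In paw Sfrp2 was also higher and Fzd5 lower, and in back skin Tcf7 was higher and 5 further ligands, Dkk3, Sfrp1, Rnf43 and Ctnnb1 were lower. In paw, 2 of the 44 tested WNT genes were higher in Merkel cells (Fzd3 and Sfrp2) and 3 were lower (Wnt3, Fzd5 and Lef1) at a Benjamini-Hochberg adjusted p below 0.05 over all 15151 genes tested with edgeR's quasi-likelihood test. These are 4.55% and 6.82% of the tested WNT genes, against 4.28% of all genes tested that were higher and 1.93% that were lower. In back skin, 2 were higher (Fzd3 and Tcf7) and 11 were lower (Wnt3, Wnt4, Wnt6, Wnt7b, Wnt10a, Wnt10b, Dkk3, Sfrp1, Rnf43, Ctnnb1 and Lef1). These are 4.55% and 25% of the tested WNT genes, against 7.99% of all genes tested that were higher and 7.45% that were lower. The median log2 fold change of the WNT genes was -0.52 in paw, against -0.04 over all genes tested, and -1.07 in back skin, against -0.06 over all genes tested. Paw Merkel libraries lay above paw IFE libraries without overlap in 13.6% of the tested WNT genes, against 24.8% of all genes tested. They lay below them in 47.7%, against 28.7%. In back skin these shares were 15.9%, against 29.1%, and 54.5%, against 32.8%. Groups without overlap are therefore common among all genes and are not a call. Fzd3, Lef1 and Wnt3 were called at both sites, out of 5 genes called in paw and 13 called in back skin. The share of calls common to both sites was not counted over all genes, so this overlap has no background to set it against. In these bulk samples fewer expressing cells and less RNA per cell cannot be told apart. The paw count was 11 with DESeq2 and 1 (Sfrp2) when the 4 paw libraries were fitted alone, and the back count was 7 if back Merkel library 1 was left out and 8 if back IFE library 2 was. When the 4 back libraries were fitted alone the back count was 10, with Wnt6, Wnt10b, Dkk3 and Rnf43 lost (edgeR adjusted p = 0.0616 to 0.0749) and Wnt9a gained. With DESeq2 the back count was 19, and it was also 19 with edgeR and no filter on low counts. The 6 listed immune and Langerhans cell markers summed to 0.152 and 0.293 CPM in Merkel cells of back skin, against 859.8 and 128 CPM in back IFE cells, and to 2.4 and 0.461 CPM in paw Merkel cells, against 29 and 16.1 CPM in paw IFE cells. Of these markers 3 were called lower in Merkel cells of back skin and 1 in those of paw, and Cd207 and Tyrobp were at 0 in all 4 Merkel libraries. The part of these cells in the results was not tested.

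**Figure D1:**
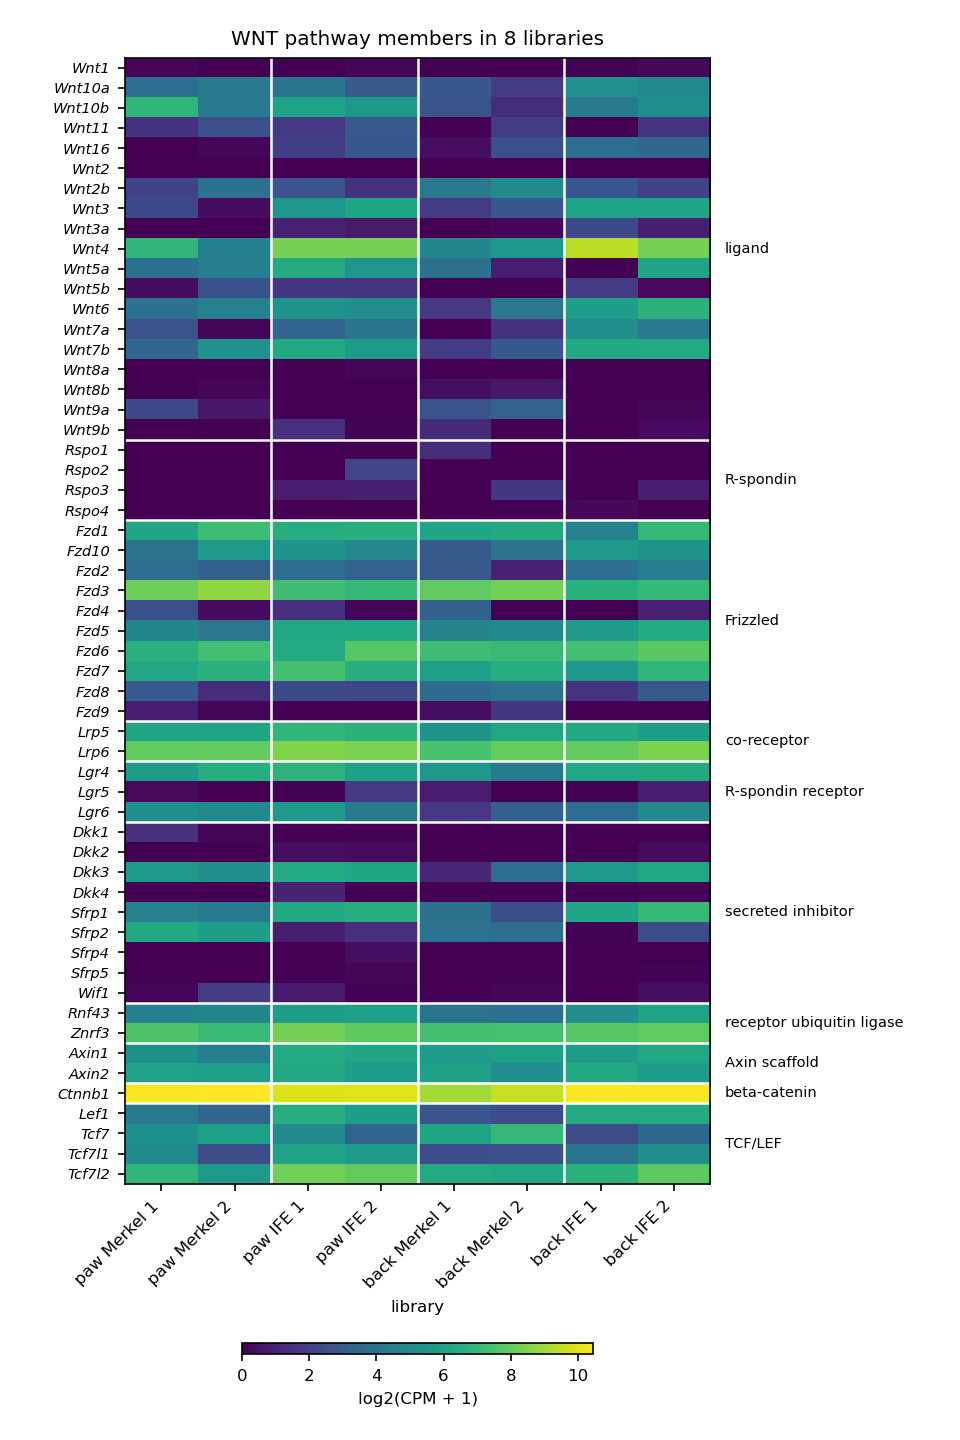
Level of each of the 56 WNT genes, as log2(CPM + 1), in the 8 libraries, grouped by role and with Merkel libraries left of the IFE libraries of the same site. Wnt3 and Lef1 were darker in all 4 Merkel libraries than in the 4 IFE libraries, Sfrp2 and Fzd3 were brighter, and most R-spondins and Dickkopf genes were near 0 throughout.

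Of the 15 ligands tested, 1 was called lower in Merkel cells of paw, where 1.93% of all genes tested were, and 6 were called lower in back skin, where 7.45% were. None was called higher at either site. Wnt3 (chr11:103774150-103817957, GRCm38), a ligand of the beta-catenin branch, had 3.98 and 0.277 CPM in paw Merkel cells, against 45.8 and 69.7 CPM in paw IFE cells. Its back values were 2.51 and 6.35 CPM in Merkel cells, against 64.7 and 69.4 CPM in IFE cells. All 4 Merkel libraries lay below all 4 IFE libraries. The log2 fold change was -4.71 (SE 1.01, edgeR adjusted p = 0.0181) in paw and -3.92 (SE 0.97, edgeR adjusted p = 0.0193) in back skin. The paw change was -7.69 without paw Merkel library 1, and the back change missed the threshold without back Merkel library 1 (-3.42, edgeR adjusted p = 0.101).

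Wnt4 (chr4:137277489-137299726), which signals through beta-catenin or without it depending on the tissue, was the ligand with the highest FPKM in each IFE library. It had 117 and 23.0 CPM in paw Merkel cells, against 316 and 313 CPM in paw IFE cells, and 26.7 and 46.3 CPM in Merkel cells of back skin, against 658 and 314 CPM in back IFE cells. The groups did not overlap at either site. The back change was -3.74 on the log2 scale (SE 0.69, edgeR adjusted p = 0.00422) and stayed past the threshold whichever library was left out, while the paw change was -2.16 (SE 0.64, edgeR adjusted p = 0.075). Without paw Merkel library 1 the paw change of Wnt4 was past the threshold, as it was with DESeq2.

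Wnt7b (chr15:85535437-85582473), an epidermal ligand of the beta-catenin branch, had 9.83 and 40.4 CPM in paw Merkel cells, against 79.9 and 50.8 CPM in paw IFE cells. In back skin, Wnt7b had 2.66 and 6.45 CPM in Merkel cells, against 81.4 and 82.9 CPM in IFE cells. The groups were apart at both sites, most widely in back skin, where the log2 change was -4.18 (SE 0.77, edgeR adjusted p = 0.0041) and kept past the threshold under each of the 8 leave-outs. The paw change was -1.38 (SE 0.68, edgeR adjusted p = 0.275).

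Wnt6 (chr1:74771892-74785322) and Wnt10a (chr1:74791516-74804179), neighbours on the same strand, were lower in back Merkel cells. Wnt6 had 14.1 and 24.5 CPM in paw Merkel cells, against 42.0 and 33.6 CPM in paw IFE cells, and 2.36 and 16.8 CPM in Merkel cells of back skin, against 56.6 and 103 CPM in back IFE cells. Its back change was -3.07 (SE 0.83, edgeR adjusted p = 0.0294). It missed the threshold without back Merkel library 1 (edgeR adjusted p = 0.0753) or back IFE library 2 (edgeR adjusted p = 0.105) and was -5.08 without back Merkel library 2. Wnt10a, whose human counterpart is mutated in disorders of teeth, hair and sweat glands, had 12.4 and 18.9 CPM in paw Merkel cells, against 16.2 and 6.56 CPM in paw IFE cells, and 6.24 and 2.64 CPM in Merkel cells of back skin, against 38.4 and 29.9 CPM in back IFE cells. The paw groups of Wnt10a overlapped (0.46, SE 0.79) and the back groups did not (-2.94, SE 0.85, edgeR adjusted p = 0.0379). That call was lost without paw IFE library 1 or any of the 4 back libraries, with an edgeR adjusted p of up to 0.189.

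Wnt10b (chr15:98770712-98778150), a ligand of hair placodes, had 112 and 18 CPM in paw Merkel cells, against 65.5 and 47.1 CPM in paw IFE cells, and 5.63 and 1.56 CPM in Merkel cells of back skin, against 19.3 and 34.2 CPM in back IFE cells. The paw Merkel libraries enclosed the paw IFE values. The back change was -2.88 (SE 0.88, edgeR adjusted p = 0.0486) and was lost without back Merkel library 2 (edgeR adjusted p = 0.223) or back IFE library 2 (edgeR adjusted p = 0.119).

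A further 3 ligands reached 20 CPM in a group without passing the threshold. Wnt5a, the main ligand of the branch that works without beta-catenin, had 13.5 and 21.6 CPM in paw Merkel cells and 84.6 and 45.8 CPM in paw IFE cells, and 14.3 and 0.782 CPM in back Merkel cells and 0.0543 and 67.2 CPM in back IFE cells. The back IFE libraries thus held both its lowest level and a level close to that of paw. Wnt2b had 3.35 and 14.0 CPM in paw Merkel cells and 5.79 and 1.92 CPM in paw IFE cells, and 17.9 and 31.4 CPM in back Merkel cells and 6.35 and 3.47 CPM in back IFE cells. Wnt7a had 5.37 and 0.0922 CPM in paw Merkel cells and 9.70 and 15.5 CPM in paw IFE cells, and 0 and 1.86 CPM in back Merkel cells and 34.7 and 18.8 CPM in back IFE cells. Among these 3 genes, Wnt2b alone had its higher values in Merkel cells at back, where its groups did not overlap (2.32, SE 1.06, edgeR adjusted p = 0.166). The other 10 ligands stayed between 0 and 12.8 CPM, with Wnt16 highest, and Wnt2 was at 0 in all 8 libraries. Among them Wnt9a had 3.98 and 0.645 CPM in paw Merkel cells, against 0 CPM in both paw IFE libraries, which is at least 34.5-fold higher with 3 counts as the floor over the group, and 5.63 and 8.70 CPM in Merkel cells of back skin, against 0 and 0.114 CPM in back IFE cells. Neither Wnt9a change passed the threshold (edgeR adjusted p = 0.0926 in paw and 0.0744 in back skin), while DESeq2 and edgeR with no filter on low counts called it higher at both sites.

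Levels of different genes can be set side by side only per length, in the FPKM that the authors deposited. Summed over the 19 ligands, FPKM was 156 and 130.1 in paw Merkel cells, against 281 and 261 in paw IFE cells, and 43.1 and 70.9 in back Merkel cells, against 423 and 361 in back IFE cells. Wnt4 made up 25.2% and 7.38% of that sum in paw Merkel cells, against 36.3% and 41.3% in paw IFE cells, and 23.9% and 26.3% in back Merkel cells, against 52.7% and 28.7% in back IFE cells. The leading ligand was not shared by the paw Merkel libraries. Wnt10b led library 1 with 49.9%. In library 2 Wnt10a, with 23.1%, lay only just above Wnt6 with 21% and Wnt7b with 20.4%. In back Merkel cells Wnt2b and Wnt9a held 16.6% and 17.2%, and 6.48% and 6.52%, of the ligand FPKM, against at most 0.33% and 0.0134% in back IFE cells.

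**Figure D2:**
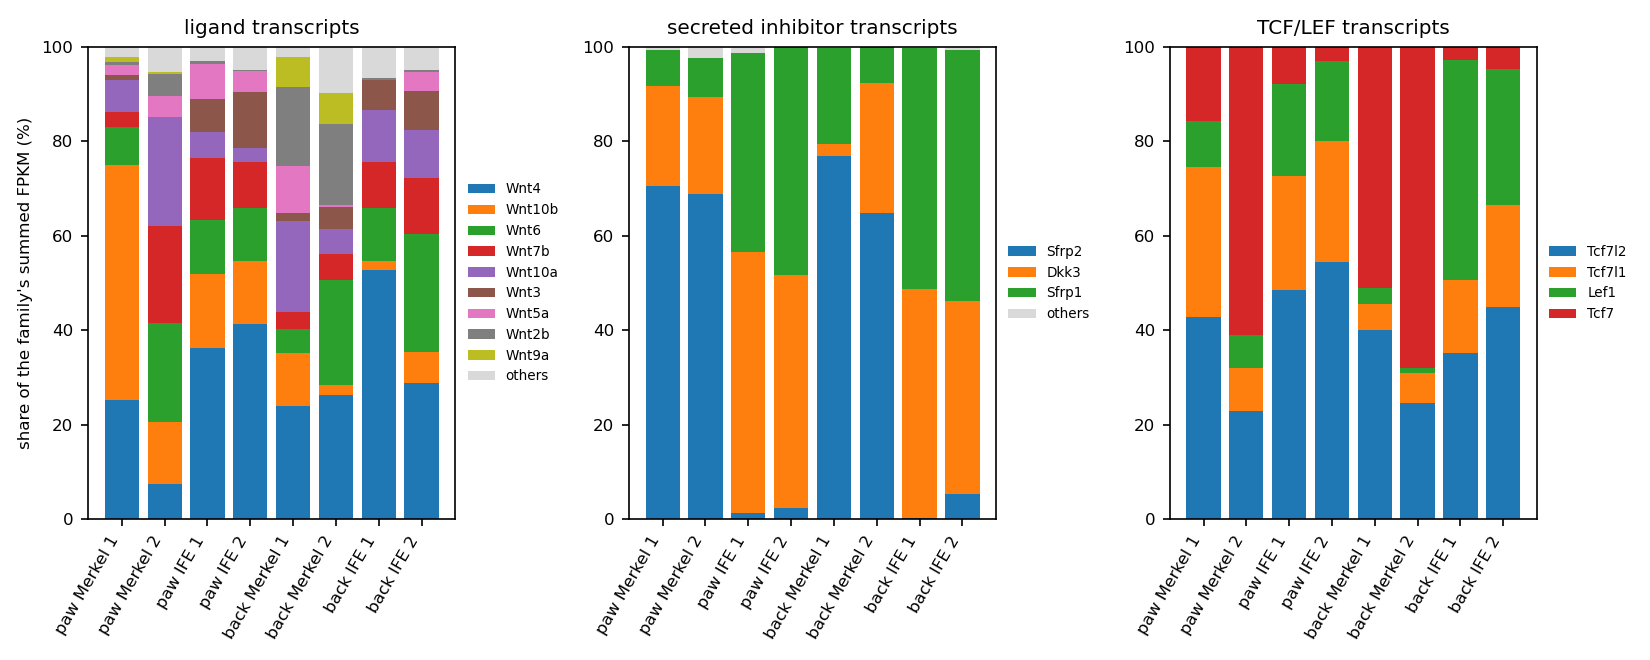
Share of the summed FPKM of a family held by each gene, in percent, in each library, for the 19 ligands, the 9 secreted inhibitors and the 4 TCF/LEF factors, with Merkel libraries left of IFE libraries of the same site. Sfrp2 held 64.8% to 76.8% of the secreted inhibitor FPKM in Merkel libraries and 0.117% to 5.27% in IFE libraries, and the Lef1 share was smaller in each Merkel library than in each IFE library.

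R-spondin transcripts were scarce, at 0 to 3.5 CPM for the 4 genes in all libraries, and only Rspo3 passed the filter. Of their receptors, Lgr4 and Lgr6 reached 20 CPM in a group. Lgr4 had 52.7 and 89.1 CPM in paw Merkel cells and 108 and 60.2 CPM in paw IFE cells, and 44.1 and 19.5 CPM in back Merkel cells and 75.3 and 80.3 CPM in back IFE cells. Lgr6, a marker of stem cells in the upper hair follicle and epidermis, had 37.4 and 30.6 CPM in paw Merkel cells and 48.4 and 17.8 CPM in paw IFE cells, and 2.36 and 8.30 CPM in back Merkel cells and 12.6 and 30.1 CPM in back IFE cells. Both genes overlapped between cell types in paw and lay lower in back Merkel than in back IFE cells, at -1.29 (SE 0.52, edgeR adjusted p = 0.118) for Lgr4 and -2.01 (SE 0.83, edgeR adjusted p = 0.126) for Lgr6. Lgr5 stayed at or below 2.47 CPM.

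Among the 10 Frizzled receptors, Fzd3 was higher in Merkel cells at both sites, Fzd5 was lower in paw, and the other 8 passed no threshold. Fzd3 (chr14:65192449-65262463), a receptor known from planar cell polarity and axon guidance, had 285 and 425 CPM in paw Merkel cells, against 153 and 126 CPM in paw IFE cells. Back Merkel cells held 238 and 308 CPM of Fzd3, against 101 and 129 CPM in back IFE cells. Every Merkel library lay above every IFE library. The log2 change was 1.35 (SE 0.34, edgeR adjusted p = 0.0408) in paw and 1.25 (SE 0.34, edgeR adjusted p = 0.0307) in back skin. Both calls sat near the threshold. The paw call was lost without paw Merkel library 2, either paw IFE library or back Merkel library 2, with an edgeR adjusted p of up to 0.274, and the back call without any 1 of the 4 back libraries, with an edgeR adjusted p of up to 0.188, while the log2 change stayed between 1.03 and 1.59.

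Fzd5 (chr1:64730558-64737751) moved the other way. It had 26.6 and 16.6 CPM in paw Merkel cells, against 77.1 and 76.0 CPM in paw IFE cells, and 24.5 and 30.2 CPM in Merkel cells of back skin, against 53.9 and 84.2 CPM in back IFE cells. The groups did not overlap at either site. The paw change was -1.83 (SE 0.48, edgeR adjusted p = 0.0493) and the back change -1.34 (SE 0.48, edgeR adjusted p = 0.082). The paw call was lost without paw Merkel library 2, either paw IFE library, either back Merkel library or back IFE library 2, with an edgeR adjusted p of up to 0.202.

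Fzd1, Fzd6 and Fzd7, the receptors with the highest FPKM in each Merkel library, passed no threshold. Fzd6, known for orienting hairs, had 97.4 and 160.1 CPM in paw Merkel cells and 82.3 and 209.6 CPM in paw IFE cells, and 149 and 132 CPM in back Merkel cells and 162 and 216 CPM in back IFE cells. Fzd1 had 71.3 and 148 CPM in paw Merkel cells and 90.2 and 93.6 CPM in paw IFE cells, and 72.5 and 81.0 CPM in back Merkel cells and 24.0 and 124 CPM in back IFE cells. For Fzd7 the values were 75.4 and 102 CPM in paw Merkel cells and 166 and 93.9 CPM in paw IFE cells, and 59.2 and 94.7 CPM in back Merkel cells and 46.2 and 116 CPM in back IFE cells. These 3 genes overlapped between Merkel and IFE cells in paw. Fzd10 also overlapped there, with 15.0 and 49.0 CPM in paw Merkel cells and 41.8 and 27.6 CPM in paw IFE cells, but lay lower in back Merkel cells (6.85 and 14.9 CPM) than in back IFE cells (48.2 and 41.1 CPM) without passing the threshold (-2.04, SE 0.70, edgeR adjusted p = 0.0735). Fzd2, Fzd4, Fzd8 and Fzd9 ranged between 0 and 21.1 CPM. In FPKM, Fzd1, Fzd6 and Fzd7 together with Fzd3 made up the larger part of the family in Merkel and IFE libraries alike. Fzd3 held 13.8% to 16.1% of it in Merkel libraries, against 4.06% to 6.72% in IFE libraries.

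The co-receptors were present throughout. Lrp6 had 236 and 247 CPM in paw Merkel cells and 349.7 and 327 CPM in paw IFE cells, and 176 and 254 CPM in back Merkel cells and 247 and 331 CPM in back IFE cells. Lrp5 had 67.8 and 67.0 CPM in paw Merkel cells and 117 and 104 CPM in paw IFE cells, and 42.1 and 73.5 CPM in back Merkel cells and 77.2 and 56.7 CPM in back IFE cells. Both lay lower in paw Merkel than in paw IFE cells without overlap, at -0.49 (SE 0.32) and -0.71 (SE 0.41) on the log2 scale, and neither passed the threshold (edgeR adjusted p = 0.425 for Lrp6 and 0.362 for Lrp5).

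Among the 4 secreted inhibitors tested, Sfrp2 was called higher in paw Merkel cells, and Sfrp1 and Dkk3 were called lower in back Merkel cells. SFRP1 and SFRP2 bind WNT ligands outside the cell. Sfrp2 (chr3:83766321-83774316) had 79.5 and 54.8 CPM in paw Merkel cells, against 0.856 and 1.68 CPM in paw IFE cells, and 14.9 and 13.7 CPM in Merkel cells of back skin, against 0.0543 and 4.27 CPM in back IFE cells. All Merkel libraries lay above all IFE libraries. The paw change was 5.72 (SE 1.38, edgeR adjusted p = 0.0318) and missed the threshold without either paw IFE library (edgeR adjusted p = 0.0942 without library 1 and 0.0686 without library 2). The back change was 2.71 (SE 1.2, edgeR adjusted p = 0.154), and 7.85 (edgeR adjusted p = 0.00191) without back IFE library 2, and DESeq2 called it with all libraries (DESeq2 adjusted p = 0.0366). Fibroblasts also express Sfrp2, and the 8 listed fibroblast markers summed to 134 and 85.8 CPM in paw Merkel cells, against 439 and 393 CPM in paw IFE cells, and to 170.5 and 78 CPM in Merkel cells of back skin, against 92.6 and 414 CPM in back IFE cells. Of these 8 markers, 0 were called higher and 1 lower in Merkel cells of paw, and 1 higher and 2 lower in those of back skin. Col1a2 was at 32.1 and 23.8 CPM in paw Merkel cells, against 36.1 and 25.9 CPM in paw IFE cells, and at 165 and 74 CPM in Merkel cells of back skin, against 21.7 and 28.9 CPM in back IFE cells. Dcn was at 86.1 and 55.5 CPM in paw Merkel cells, against 229.6 and 164 CPM in paw IFE cells. In Merkel cells of back skin Dcn was at 5.1 and 3.61 CPM, against 60.6 and 181 CPM in back IFE cells. Col3a1 was at 0.228 and 0.195 CPM in Merkel cells of back skin, against 8.09 and 195 CPM in back IFE cells. Col1a2 thus made up most of the fibroblast sum in Merkel cells of back skin. Lum was at 0 in all 4 Merkel libraries and in 2 of the 4 IFE libraries, and Twist2 was at 0 in all 8. The part of fibroblast transcript in the Sfrp2 result was not tested.

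Sfrp1 (chr8:23411502-23449632) had 23.7 and 19.1 CPM in paw Merkel cells, against 81.3 and 91.3 CPM in paw IFE cells, and 14.3 and 4.69 CPM in Merkel cells of back skin, against 68.0 and 127 CPM in back IFE cells. Merkel and IFE libraries did not overlap at either site. Its back change was -3.36 (SE 0.61, edgeR adjusted p = 0.00396) and stayed past the threshold under each leave-out, and its paw change was -2.01 (SE 0.58, edgeR adjusted p = 0.0661). Dkk3 (chr7:112116017-112159057), a divergent Dickkopf relative, had 49.0 and 35.3 CPM in paw Merkel cells, against 83.9 and 70.9 CPM in paw IFE cells, and 1.22 and 12.3 CPM in Merkel cells of back skin, against 48.2 and 74.2 CPM in back IFE cells. The back change of Dkk3 was -3.19 (SE 0.84, edgeR adjusted p = 0.0264), with an edgeR adjusted p of 0.0529 without back IFE library 2 and a log2 change of -5.65 without back Merkel library 2. The other 6 inhibitors (Dkk1, Dkk2, Dkk4, Sfrp4, Sfrp5 and Wif1) lay at 0 to 2.67 CPM. Of the summed inhibitor FPKM, Sfrp2 held 70.6% and 68.8% in paw Merkel cells, against 1.25% and 2.33% in paw IFE cells, and 76.8% and 64.8% in back Merkel cells, against 0.117% and 5.27% in back IFE cells.

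**Figure D3:**
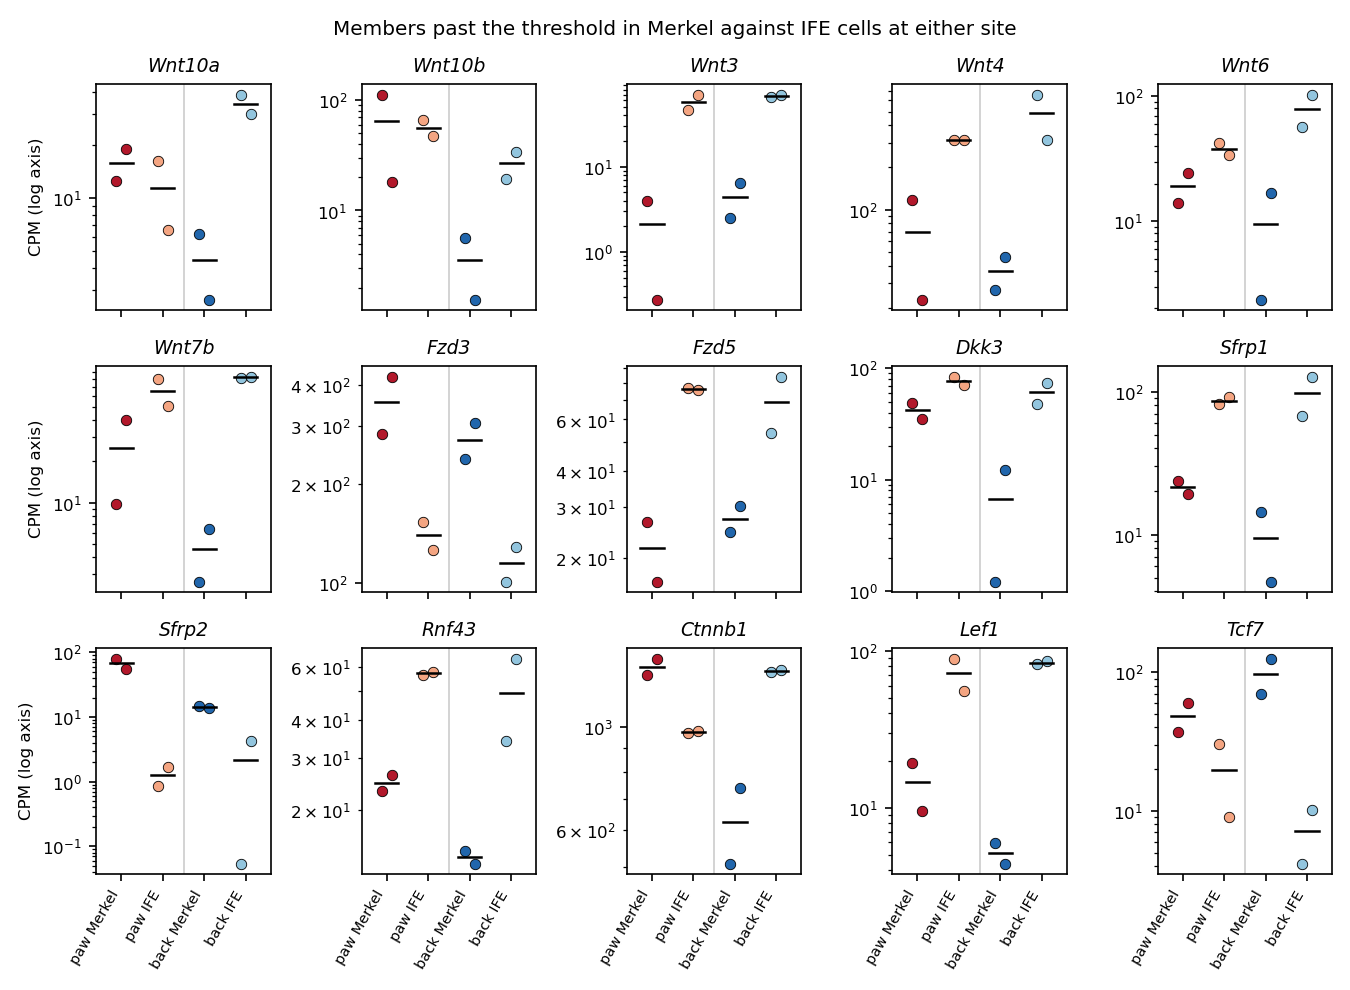
CPM on a log axis of the 15 WNT genes past the threshold in Merkel against IFE cells at either site; each point is a library, each bar the mean of the 2 libraries of a group, and Merkel cells stand left of IFE cells. Wnt3, Wnt4, Wnt6, Wnt7b, Fzd5, Dkk3, Sfrp1, Rnf43 and Lef1 were lower in Merkel cells at both sites without overlap. Fzd3, Sfrp2 and Tcf7 were higher at both sites without overlap. Wnt10a and Wnt10b overlapped in paw and were lower in back Merkel cells. Ctnnb1 was higher in paw Merkel cells and lower in back Merkel cells.

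Of the ligases that clear Frizzled from the membrane, Rnf43 was called lower in back Merkel cells. Rnf43 (chr11:87662722-87735539) had 23.2 and 26.2 CPM in paw Merkel cells, against 56.5 and 58.0 CPM in paw IFE cells, and 14.6 and 13.3 CPM in Merkel cells of back skin, against 34.1 and 64.1 CPM in back IFE cells. Its back change was -1.82 (SE 0.53, edgeR adjusted p = 0.0399) and its paw change -1.21 (SE 0.52, edgeR adjusted p = 0.209). The back call was lost without either paw IFE library, either back Merkel library or back IFE library 2, with an edgeR adjusted p of up to 0.294. Znrf3 had 187 and 131 CPM in paw Merkel cells and 307 and 231 CPM in paw IFE cells, and 164 and 170 CPM in back Merkel cells and 211 and 235 CPM in back IFE cells. Its groups did not overlap at either site and the changes of -0.76 (SE 0.33, edgeR adjusted p = 0.212) in paw and -0.42 (SE 0.33, edgeR adjusted p = 0.418) in back skin passed no threshold.

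Of the Axin scaffolds, Axin2 is itself a target of the pathway and is widely used as its readout. Axin2 had 63.5 and 58.3 CPM in paw Merkel cells and 81.1 and 57.5 CPM in paw IFE cells, and 61.5 and 34.3 CPM in back Merkel cells and 81.3 and 53.8 CPM in back IFE cells. The cell types overlapped at both sites, with log2 changes of -0.19 (SE 0.46, edgeR adjusted p = 0.866) in paw and -0.50 (SE 0.46, edgeR adjusted p = 0.5) in back skin. Axin1 had 37.4 and 21.2 CPM in paw Merkel cells and 82.1 and 70.6 CPM in paw IFE cells, and 52.9 and 61.1 CPM in back Merkel cells and 53.5 and 74.1 CPM in back IFE cells. It was lower in paw Merkel cells without overlap (-1.38, SE 0.46, edgeR adjusted p = 0.107).

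Beta-catenin transcript was called lower in back Merkel cells, and in paw it lay higher without passing the threshold. Ctnnb1 (chr9:120929216-120960507) encodes both the co-activator of TCF/LEF proteins and a part of adherens junctions. It had 1292 and 1401 CPM in paw Merkel cells, against 968 and 979 CPM in paw IFE cells, and 508 and 739 CPM in Merkel cells of back skin, against 1312 and 1322 CPM in back IFE cells. The groups did not overlap at either site. The paw change was 0.47 (SE 0.30, edgeR adjusted p = 0.415) and the back change -1.08 (SE 0.30, edgeR adjusted p = 0.0345). The back call was lost without either paw IFE library or any 1 of the 4 back libraries, with log2 changes of -1.38 to -0.86 and an edgeR adjusted p of up to 0.209.

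The TCF/LEF factors differed in composition between the cell types. Lef1 (chr3:131110471-131224356), whose product works with beta-catenin in the hair placode and in the matrix of the hair, had 19.4 and 9.59 CPM in paw Merkel cells, against 89.5 and 55.4 CPM in paw IFE cells. Back skin held 5.93 and 4.4 CPM of Lef1 in Merkel cells, against 82.3 and 86.4 CPM in IFE cells. No Merkel library reached an IFE library. The log2 change was -2.32 (SE 0.54, edgeR adjusted p = 0.0279) in paw, where it was lost without paw Merkel library 2 (edgeR adjusted p = 0.113) or paw IFE library 1 (edgeR adjusted p = 0.208), and -4.03 (SE 0.59, edgeR adjusted p = 0.00103) in back skin, where it kept past the threshold under all 8 leave-outs.

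Tcf7 (chr11:52252371-52283014), which encodes TCF1, moved the opposite way. It had 37.3 and 59.6 CPM in paw Merkel cells, against 30.4 and 9.03 CPM in paw IFE cells, and 69.4 and 125 CPM in Merkel cells of back skin, against 4.18 and 10.2 CPM in back IFE cells. The groups were apart at both sites, closely in paw and widely in back skin. The back change was 3.76 (SE 0.75, edgeR adjusted p = 0.00616) and stayed past the threshold under each leave-out, and the paw change was 1.30 (SE 0.68, edgeR adjusted p = 0.307).

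The remaining factors passed no threshold. Tcf7l2 had 116 and 49.9 CPM in paw Merkel cells and 295 and 243 CPM in paw IFE cells, and 82.4 and 76.0 CPM in back Merkel cells and 103 and 226 CPM in back IFE cells. Tcf7l1, mainly a repressor in skin stem cells, had 30.6 and 4.52 CPM in paw Merkel cells and 63.2 and 48.8 CPM in paw IFE cells, and 4.56 and 4.79 CPM in back Merkel cells and 15.3 and 35.7 CPM in back IFE cells. Both lay lower in Merkel cells at both sites without overlap, with edgeR adjusted p-values of 0.0634 in paw and 0.158 in back skin for Tcf7l2 and of 0.286 and 0.0803 for Tcf7l1. Of the summed TCF/LEF FPKM, Tcf7 held 15.6% and 61.1% in paw Merkel cells, against 7.75% and 2.93% in paw IFE cells, and 50.9% and 67.9% in back Merkel cells, against 2.8% and 4.56% in back IFE cells. Lef1 held 9.88% and 6.88% in paw Merkel cells, against 19.6% and 17.1% in paw IFE cells, and 3.4% and 1.23% in back Merkel cells, against 46.5% and 28.8% in back IFE cells.

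Promoters of called genes that hold a match to a searched motif are shown as examples. They are those of Wnt3 and Lef1, called lower in Merkel cells at both sites, and of Tcf7, called higher in back Merkel cells. Each window runs from 250 bases before to 50 bases after a RefSeq start in GRCm38.p6, 5′ to 3′ on the gene's strand. Capitals mark a TCF/LEF motif (on either strand CTTTGAA, also CTTTGAT, also CTTTGTA, also CTTTGTT) or the E-box CAGCTG, a form of the site bound by basic helix-loop-helix factors, the class of ATOH1.
Wnt3 chr11:103773925-103774224, plus strand, TCF/LEF motif: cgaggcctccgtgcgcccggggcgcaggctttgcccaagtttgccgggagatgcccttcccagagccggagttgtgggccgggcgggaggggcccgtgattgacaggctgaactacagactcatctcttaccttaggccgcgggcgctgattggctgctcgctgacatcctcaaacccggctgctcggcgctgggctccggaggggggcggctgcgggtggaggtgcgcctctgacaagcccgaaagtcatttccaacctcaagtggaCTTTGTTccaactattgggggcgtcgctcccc
Lef1 chr3:131156044-131156343, plus strand, internal start, TCF/LEF motif: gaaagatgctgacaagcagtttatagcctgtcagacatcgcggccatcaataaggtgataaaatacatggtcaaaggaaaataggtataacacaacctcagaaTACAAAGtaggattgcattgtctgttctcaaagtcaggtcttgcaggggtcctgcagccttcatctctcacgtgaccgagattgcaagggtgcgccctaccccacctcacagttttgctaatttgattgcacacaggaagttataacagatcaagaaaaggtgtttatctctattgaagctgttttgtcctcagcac
Tcf7 chr11:52282965-52283264, minus strand, E-box: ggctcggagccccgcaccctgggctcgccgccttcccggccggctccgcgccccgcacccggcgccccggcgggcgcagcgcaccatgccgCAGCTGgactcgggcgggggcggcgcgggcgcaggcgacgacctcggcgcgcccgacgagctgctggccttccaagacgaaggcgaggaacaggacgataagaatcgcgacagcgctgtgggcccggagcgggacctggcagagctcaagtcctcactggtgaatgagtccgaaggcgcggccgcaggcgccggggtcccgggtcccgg
The TCF/LEF match begins 19 bases after the start in Wnt3 and 147 bases before it in the Lef1 window. The E-box begins 159 bases before the start used for the Tcf7 window. The letters atgccg stand directly before this E-box, and the reading frame from that atg has no stop codon in the window. The E-box therefore lies inside an open reading frame. Whether it is promoter or coding sequence was not tested. Of the 56 WNT genes 37 have an entry in the RefSeq promoter table, with 47 windows, and 10 of the 15 called genes have one, with 16 windows. The TCF/LEF motif is found in 2 of those 16 windows (12.5%), 7 of the 47 (14.9%) and 16.9% of all 32851 promoters, and the E-box in 2 of the 16 (12.5%), 5 of the 47 (10.6%) and 16.3% of all promoters. Other windows of the genes shown differ. The Lef1 windows chr3:131110047-131110346 and chr3:131110073-131110372 hold 0 matches, and the Lef1 window chr3:131112541-131112840 holds 1 E-box. The Tcf7 window chr11:52282546-52282845 holds 0 matches. A match is a description of these letters.

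**Figure D4:**
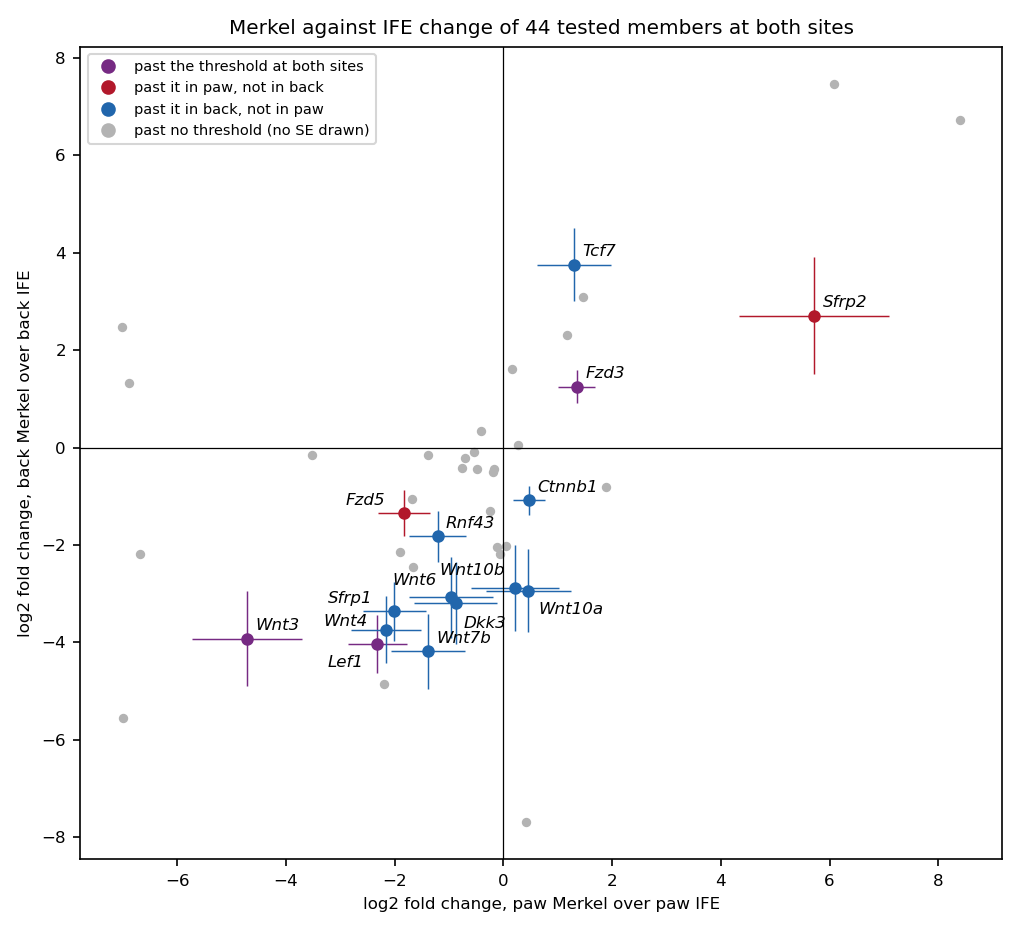
Log2 fold change of Merkel over IFE cells in paw (horizontal) and back (vertical) for the 44 tested WNT genes, with SE bars and names for the 15 called genes; grey points beyond about 6 in size are genes at or near 0 in a group, whose fitted change depends on the prior count. Wnt3, Lef1 and Fzd3 were called at both sites, and Ctnnb1 lay right of 0 in paw and below 0 in back skin.

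Whether the Merkel change differed between the sites was tested directly. None of the 44 WNT genes passed the threshold for this difference with edgeR, where 0% of all genes tested were called, and none did with DESeq2, while 6 had an unadjusted p below 0.05 with edgeR, against 1365 of all 15151 genes tested. These 6 were Ctnnb1 (difference in log2 change 1.55, SE 0.43, edgeR adjusted p = 0.348), Wnt10a (3.40, SE 1.14, edgeR adjusted p = 0.448), Wnt7b (2.79, SE 0.97, edgeR adjusted p = 0.462), Wnt10b (3.10, SE 1.19, edgeR adjusted p = 0.513), Tcf7 (-2.46, SE 0.96, edgeR adjusted p = 0.52) and Lef1 (1.71, SE 0.74, edgeR adjusted p = 0.541). A gene called in back skin and not in paw is therefore not shown to differ between them.

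Set directly against back Merkel cells, paw Merkel cells differed in 0 of the 44 WNT genes with edgeR, where 0.185% of all genes tested were called in either direction. An unadjusted p below 0.05 was found for 12, against 1550 of all 15151 genes tested, and DESeq2 called 5 (Wnt7b, Wnt10b, Dkk3 and Lgr6 higher and Wnt16 lower in paw). The median log2 change was 0.45, against 0.03 over all genes tested. Both paw Merkel libraries lay above both back Merkel libraries in 15 of the 44 genes (34.1%), against 18.2% of all genes tested, and below them in 6 (13.6%), against 17.2%. The smallest edgeR adjusted p was that of Wnt10b, with 112 and 18 CPM in paw Merkel cells, against 5.63 and 1.56 CPM in back Merkel cells (4.17, SE 0.93, edgeR adjusted p = 0.128). Next came Ctnnb1 (1.11, SE 0.30, edgeR adjusted p = 0.219), Wnt7b (2.46, SE 0.72, edgeR adjusted p = 0.25), Dkk3 (2.65, SE 0.83, edgeR adjusted p = 0.298) and Lgr6 (2.68, SE 0.85, edgeR adjusted p = 0.303), all higher in paw without overlap. Without paw Merkel library 1 edgeR called Wnt7b, and without paw Merkel library 2 or back IFE library 1 it called Wnt10b. The summed basal keratinocyte markers were 3451 and 1860.1 CPM in paw Merkel cells, against 1073 and 1515 CPM in back Merkel cells, and their part in these differences was not tested.

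Between paw IFE and back IFE cells 0 of the 44 WNT genes passed the threshold with edgeR or DESeq2 and 0 had an unadjusted p below 0.05 with edgeR, where 0% of all genes tested were called and 643 of the 15151 had such an unadjusted p. The median log2 change was 0.18, against 0.01 over all genes tested. Paw IFE libraries lay above both back IFE libraries without overlap in 5 genes (11.4%), against 20.2% of all genes tested, and below them in 7 (15.9%), against 20.2%. Without back IFE library 2, the library that stood near paw in Hoxc10, Wnt5a was called higher in paw IFE cells.

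A list of 54 other WNT pathway genes, of which 50 were tested, was read in the same fit. In paw, 3 (6%) were higher in Merkel cells, against 4.28% of all genes tested, and 6 (12%) were lower, against 1.93%, with a median log2 change of -0.16, against -0.04 over all genes tested. In back skin 4 (8%) were higher, against 7.99%, and 10 (20%) were lower, against 7.45%, with a median of -0.06, the same as over all genes tested. The lower genes of back skin include Sp8, at 0 CPM in both Merkel libraries and at 0.109 and 28.7 CPM in IFE libraries 1 and 2. The Sp8 call thus rests on back IFE library 2. Paw against back Merkel cells, paw against back IFE cells and the difference between sites each gave 0 calls with edgeR (5, 2 and 4 genes with an unadjusted p below 0.05, against 1550, 643 and 1365 of all genes tested) and 1 with DESeq2. Nkd1, a Dishevelled-binding antagonist that is itself induced by WNT, had 39.9 and 54.1 CPM in paw Merkel cells, against 2.44 and 1.14 CPM in paw IFE cells, and 51.9 and 34.5 CPM in Merkel cells of back skin, against 2.33 and 0.649 CPM in back IFE cells. It rose by 4.71 on the log2 scale in paw (SE 0.86, edgeR adjusted p = 0.00756, and 0.0587 without paw IFE library 2) and by 4.86 in back skin (SE 0.87, edgeR adjusted p = 0.00344). Draxin, an axon guidance protein that also restrains WNT signalling at LRP6, had 18.1 and 10.8 CPM in paw Merkel cells and 17.4 and 7.72 CPM in Merkel cells of back skin, against 0 CPM in all 4 IFE libraries, which is at least 215-fold higher in paw and at least 187-fold higher in back skin with 3 counts as the floor over a group. Celsr3, a cadherin of the planar polarity family known from axon tracts, had 81.8 and 72.7 CPM in paw Merkel cells, against 0.122 and 3.80 CPM in paw IFE cells, and 185 and 322 CPM in Merkel cells of back skin, against 0.163 and 0.114 CPM in back IFE cells (edgeR adjusted p = 0.0111 in paw and 0.000394 in back skin). The Celsr3 paw change was 5.31, and 9.22 without paw IFE library 2.

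Genes of the same list that fell included receptors, the carrier Wls and some of the listed WNT targets. Of those targets, Tnfrsf19 and Ccnd1 were called lower at both sites and Myc in back skin alone. Nkd1 was called higher at both sites, and Bmp4 and Edar passed no threshold. Tnfrsf19, a receptor gene induced by WNT, had 57.8 and 45.5 CPM in paw Merkel cells, against 319 and 222 CPM in paw IFE cells, and 30.0 and 38.3 CPM in Merkel cells of back skin, against 543 and 243 CPM in back IFE cells (-2.39, edgeR adjusted p = 0.00753 in paw and -3.52, edgeR adjusted p = 0.000475 in back skin). Ccnd1, the cyclin D1 gene, had 31.2 and 17.4 CPM in paw Merkel cells, against 184 and 128 CPM in paw IFE cells, and 29.4 and 17.8 CPM in Merkel cells of back skin, against 254 and 159.8 CPM in back IFE cells (edgeR adjusted p = 0.0061 in paw and 0.00139 in back skin). For Ccnd1, 23.4% of exonic bases are shared with a gene on the other strand. Ror1, a receptor tyrosine kinase for WNT5A, had 6.90 and 9.68 CPM in paw Merkel cells, against 64.6 and 54.8 CPM in paw IFE cells, and 8.98 and 15.4 CPM in Merkel cells of back skin, against 66.7 and 63.4 CPM in back IFE cells. Its log2 change was -2.85 in paw (edgeR adjusted p = 0.0109, and 0.0588 without paw IFE library 1) and -2.41 in back skin (edgeR adjusted p = 0.012, 0.0717 if back Merkel library 1 was left out and 0.0504 if back IFE library 1 was). Wls, which carries WNT ligands to the cell surface, had 61.0 and 64.5 CPM in paw Merkel cells, against 141 and 129.7 CPM in paw IFE cells, and 29.7 and 32.3 CPM in Merkel cells of back skin, against 172 and 167 CPM in back IFE cells, and fell by 2.45 in back skin (SE 0.36, edgeR adjusted p = 0.00103). Celsr1, the epidermal planar polarity cadherin, had 134 and 152 CPM in paw Merkel cells, against 429 and 339.6 CPM in paw IFE cells, and 62.0 and 94.2 CPM in Merkel cells of back skin, against 325 and 281 CPM in back IFE cells. Its log2 change was -1.42 in paw (edgeR adjusted p = 0.0285, and up to 0.191 without a paw library) and -1.96 in back skin (edgeR adjusted p = 0.00302).

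**Figure D5:**
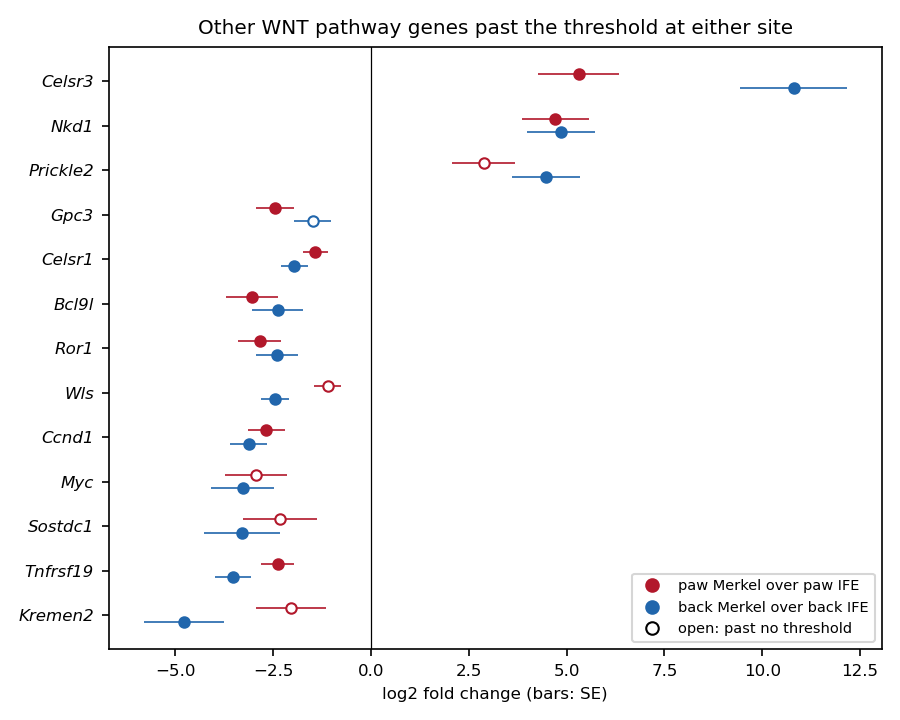
Log2 fold change of Merkel over IFE cells, with SE bars, in paw (red) and back (blue) for the other WNT pathway genes past the threshold at either site; open points are past no threshold, and Draxin and Sp8, at 0 in a whole group, are not drawn. Celsr3 and Nkd1 lay right of 0 and Tnfrsf19, Ccnd1 and Ror1 left of 0 at both sites.

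Some called genes overlap other genes, and the strand setting of the counting is not given in the sources used here. In the GENCODE annotation of GRCm38 the share of exonic bases held in common with genes on the opposite strand was 17.8% for Fzd5, 13.7% for Lef1, 16.1% for Sfrp2 and 6.61% for Wnt7b. For Ctnnb1 it was 15.1%, held with Ulk4 on the opposite strand and Mir7090 on the same strand. Whether reads of such partners entered these counts, or reads in the shared bases were left out, is not known. Sp6, of the other pathway genes, shares 86.7% of its exonic bases with a gene on the opposite strand. It had 0 counts in every library and 2.83 to 19.2 FPKM, and the cause was not tested.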

How the data were processed

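RNA from sorted cells was amplified, made into libraries and sequenced as paired-end reads, per the labels' protocols. The authors deposited counts per gene for each library and an FPKM table for all 8. The submitters' processing notes name mm10, TopHat2 2.0.13, Cufflinks 2.2.1, featureCounts of Subread 1.4.6 and DESeq2 1.6.3; the annotation and strand setting are not given in the sources used here. FPKM (24453 genes) was used for levels between genes and family shares, with no test. The counts were tested with edgeR 4.0.16 in R 4.3.3: TMM scaling, a filter on low counts by group (15151 of 24538 genes kept), 1 mean per group over all 8 libraries with 4 residual degrees of freedom, and Benjamini-Hochberg adjustment over all genes tested with a threshold of 0.05. The SE is the log2 change divided by the root of the F statistic. The fit was checked on simulated counts. Alternatives were DESeq2 1.42.0, RLE size factors, no filter, the replicate number as a block, the compared groups alone, and each library left out. Genes are named with all values if called, or if a group mean reached 20 CPM; of the other pathway genes, at most 6 per comparison by adjusted p. The genes and lists were chosen with earlier results of these data known. A floor of 3 counts covers counting error only, since amplified reads are not independent molecules.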

Additional observations from a re-analysis of the deposited data

Results flagged for a closer look

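Ctnnb1, the beta-catenin gene, drew attention because both paw Merkel libraries lay above both paw IFE libraries (1292 and 1401 CPM against 968 and 979 CPM), while both back Merkel libraries lay below both back IFE libraries (508 and 739 CPM against 1312 and 1322 CPM). Of all genes tested, 24.8% lay higher without overlap in paw Merkel cells and 32.8% lower in back Merkel cells. The share with both patterns was not counted. Ctnnb1 was picked by this pattern, so the p-values below are not independent of that choice. The Merkel over IFE log2 change in paw minus that in back skin was 1.55 (SE 0.43), with an unadjusted p of 0.00391 and an adjusted p of 0.348 by edgeR's quasi-likelihood test, so the difference between the sites did not pass the correction over all genes. Of its exonic bases, 15.1% are shared with Ulk4 on the opposite strand and Mir7090 on the same strand. The part of the keratinocyte transcript in the Merkel libraries and of the overlapping genes in this result was not tested.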

How the results depend on the processing

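The count of WNT genes called in Merkel against IFE cells of the paw was 5, and it was 11 with DESeq2, 10 with no filter on low counts, 1 with the compared groups alone, and 1 to 9 when a library was left out. In back skin it was 13, and 7 to 18 when a library was left out. Paw against back Merkel cells gave 0, and 5 with DESeq2, 4 with no filter and 0 to 1 with a library left out; paw against back IFE cells gave 0, and 0 to 1 with a library left out. The difference between sites gave 0, and 1 (Wnt10b) with no filter. For the other pathway genes the paw count was 9, 14 with DESeq2 and 7 to 14 with a library left out. Their counts of 0 became 1 with DESeq2 and 2 with no filter between Merkel cells (0 to 1 with a library left out), 1 and 1 between IFE cells (0 to 2), and 1 and 2 for the difference between sites (0 to 2). The back count of the WNT genes was 19 with DESeq2, 19 with no filter on low counts and 10 with the compared groups alone. The cause of these shifts was not tested. Over the genes tested, the deviations of libraries with the same replicate number had correlations of -0.044 to 0.093. With 2 libraries per group, differences within single groups can hide a shared one, so pairing by number is not excluded. A replicate block gave 5 paw and 12 back calls for the WNT genes (Fzd5 lost and Wnt4 gained in paw, Rnf43 lost in back skin). It gave 12 and 14 for the others, and 0 in the other comparisons. With RLE size factors no count moved by over 1.5 times. The paw change of Wnt10a, 0.46, lay between -0.05 (without paw IFE library 2) and 1.25 over the leave-outs. That of Wnt10b, 0.21, was -0.11 with the replicate block and lay between -1.66 (without paw Merkel library 1) and 1 over the leave-outs, with -0.01 without paw IFE library 2. A lone library in an arm was assumed to vary like the other groups. With 2 libraries per group, calls near the threshold are the least certain, and genes under a few CPM carry wide errors.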
